A study of Mus musculus with 32 samples.

Results

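Endod1, Plekho2, Bcl11a, Gfra2, Ramp1, Serpinf1, Hs3st2 and Hs3st3b1 are 8 mouse genes that the study names as quickly repressed once Ikaros is active. Every Ikaros, CHD4 and H3K27ac peak whose interval came within 50 kb of the 5′ end of one of these genes was collected, which gave 155 of the 78488 regions obtained by merging the peaks of each target over its libraries. Of these, 49 were Ikaros regions (of 23844), 32 were CHD4 regions (of 15355) and 74 were H3K27ac regions (of 39289). The cells were B3, a mouse pre-B line that was first derived from a lymphoma, and all groups, the 0 h group included, carried a retroviral HA-tagged Ikaros joined to the ERt2 hormone-binding domain, which keeps it inactive until its ligand is given. The 4 groups were cells with no treatment (0 h) and cells given 500 nM 4-hydroxytamoxifen (4-OHT) for 30 min, 1 h or 2 h, with 2 replicate libraries per group for each of the 3 targets. Cells were fixed with DSG and formaldehyde, and the labels name sonication or MNase for the chromatin digestion without saying which library had which. There was no group without the construct and none given 4-OHT without it, so what 4-OHT itself does and what Ikaros does cannot be told apart. Several of the genes were named by the study for lost H3K27ac in these same libraries, so a lower H3K27ac level near them is not independent evidence of that direction.

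Ikaros (Ikzf1) is a zinc finger protein that binds DNA through GGGAA-type words and is required for B cell development, and its loss is common in B cell leukaemia. CHD4 is the remodelling ATPase of the NuRD complex, which also carries histone deacetylases and which Ikaros is known to bind. H3K27ac, acetylated lysine 27 of histone H3, marks active promoters and enhancers and is removed by deacetylases. Among the genes, Gfra2 encodes the neurturin co-receptor that signals with RET, Ramp1 a partner protein of the receptor for calcitonin gene-related peptide, and Bcl11a a zinc finger transcription factor needed for early B cells. Hs3st2 and Hs3st3b1 encode heparan sulphate 3-O-sulphotransferases, Serpinf1 the secreted pigment epithelium-derived factor, Plekho2 a pleckstrin homology domain protein, and Endod1 a protein with an endonuclease-like domain.

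The Ikaros lists held 5373 to 14874 peaks per library, the CHD4 lists 2488 to 9593 and the H3K27ac lists 21468 to 33664. Recovered mean coverage was 1.98 to 3.59 fragments per base for Ikaros and 3.75 to 4.34 for H3K27ac, whereas depth could not be recovered for CHD4 and is unknown. H3K27ac promoter peaks were present in all 8 libraries for 9 of 10 B lineage markers, for Cd3d and Lck among 6 T lineage markers, for 0 of 6 myeloid markers and for Klf1 among 6 erythroid markers. The lists give no peak to Cd3e, Cd3g, Cd4, Cd8a, Csf1r, Mpo or Gata1 promoters. The value used throughout is the fold, the enrichment of the highest peak of a region over its local background as the authors' caller gave it.

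The sequence under the strongest Ikaros site near each gene is shown first, because the binding results below turn on these sites. Each is 101 bases of GRCm38 (mm10), + strand, centred on the summit of the library after 4-OHT with the highest fold, and capitals mark the core words of Ikaros binding on both strands: the word GGAA, which reads TTCC from the other strand, and the word GGGA, which reads TCCC from the other strand. The longer word GGGAA, or TTCCC from the other strand, holds 2 core words that overlap.
Endod1, chr9:14365822-14365922: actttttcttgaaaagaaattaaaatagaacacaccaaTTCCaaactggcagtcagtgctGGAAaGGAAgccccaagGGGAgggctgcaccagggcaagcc
Plekho2, chr9:65541591-65541691: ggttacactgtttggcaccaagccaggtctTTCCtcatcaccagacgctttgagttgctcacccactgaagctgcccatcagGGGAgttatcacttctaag
Bcl11a, chr11:24081864-24081964: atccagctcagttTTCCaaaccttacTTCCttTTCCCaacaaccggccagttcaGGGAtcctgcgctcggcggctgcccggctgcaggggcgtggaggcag
Gfra2, chr14:70850271-70850371: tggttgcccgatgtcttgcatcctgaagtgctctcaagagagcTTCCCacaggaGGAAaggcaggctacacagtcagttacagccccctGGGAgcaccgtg
Ramp1, chr1:91216633-91216733: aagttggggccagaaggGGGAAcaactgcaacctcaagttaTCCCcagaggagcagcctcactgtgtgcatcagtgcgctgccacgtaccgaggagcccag
Serpinf1, chr11:75415200-75415300: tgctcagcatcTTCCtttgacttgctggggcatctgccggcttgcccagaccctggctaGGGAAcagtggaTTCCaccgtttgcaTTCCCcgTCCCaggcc
Hs3st3b1, chr11:63925171-63925271: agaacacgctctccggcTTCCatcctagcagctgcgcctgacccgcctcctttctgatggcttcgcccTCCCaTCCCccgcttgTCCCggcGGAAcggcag
Hs3st2 had no Ikaros site to show. The Serpinf1 sequence held 7 core words with 2 of the longer words, the Plekho2 sequence held 2 core words, and the other 5 held 3 to 5. None of the 7 windows overlaps an annotated exon. The 8 libraries put the summit of the Ramp1 site within 107 bp and that of the Endod1 site within 273 bp. The summits were spread over 607 bp at Plekho2, 944 bp at Serpinf1, 1202 bp at Bcl11a, 1805 bp at Hs3st3b1 and 2650 bp at Gfra2. These spreads exceed the 101 bases shown, so a window shows the summit of 1 library and can leave out those of others.

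An Ikaros site was defined as an Ikaros region called in both replicates of at least 1 time after 4-OHT, and 28 of 11261 such sites lay near the 8 genes. Plekho2 had 9, Gfra2 had 6, Serpinf1 had 5, Bcl11a had 3, Endod1 and Hs3st3b1 had 2 each, Ramp1 had 1 and Hs3st2 had 0. At least 1 core word lay within 50 bp of the summit at 26 of the 28, against 95.0% of all sites, and a longer word at 12 of the 28, against 41.0% of all sites. The words were therefore about as frequent near these genes as elsewhere.

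**Figure D1:**
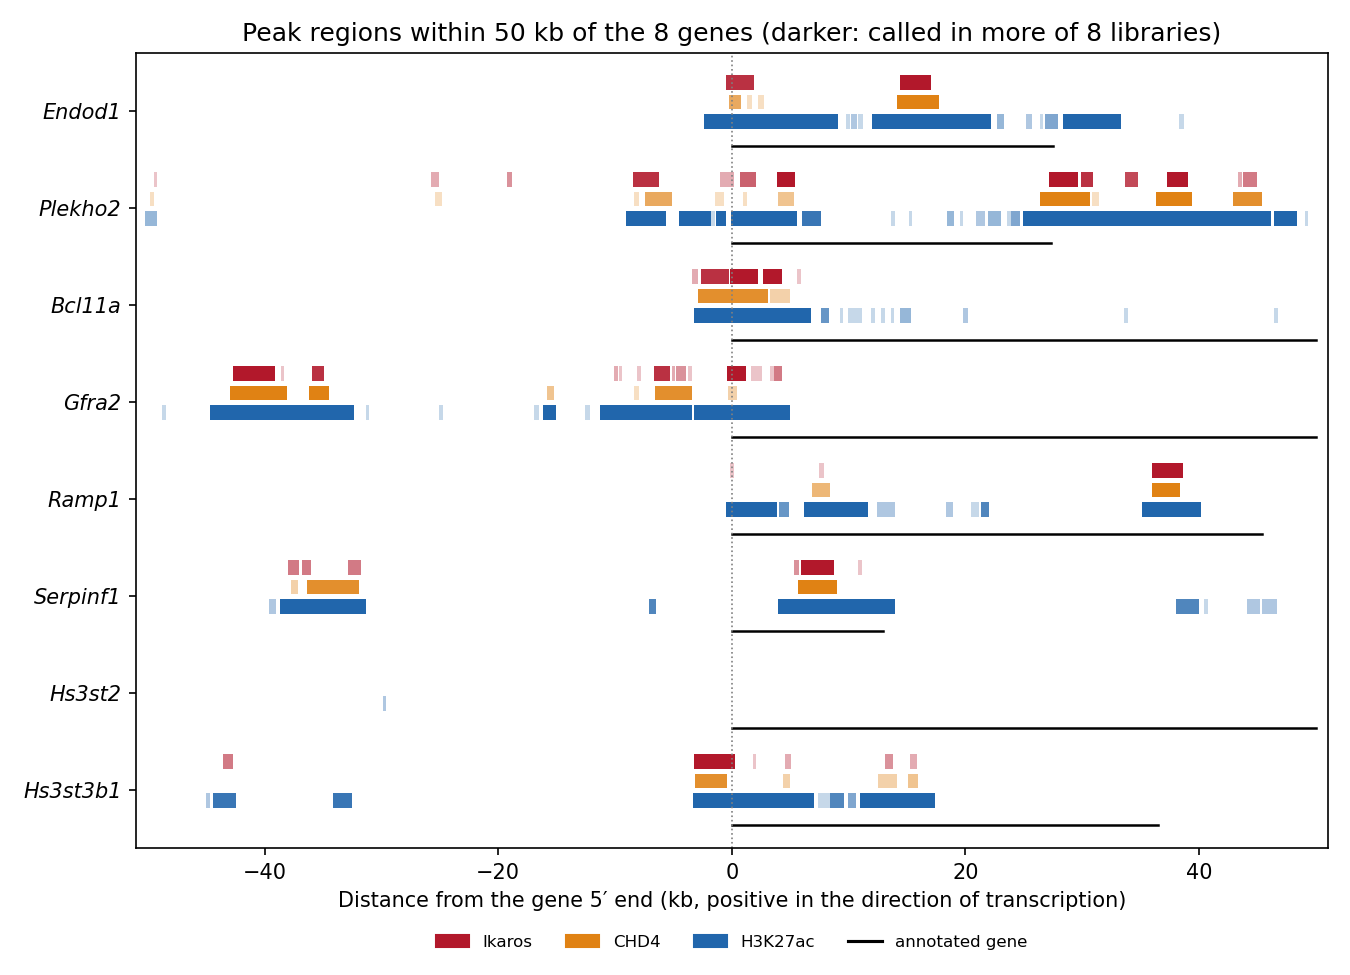
Merged peak regions of Ikaros (red), CHD4 (orange) and H3K27ac (blue) around each gene, by distance from the gene 5′ end in kb along the direction of transcription; a darker bar was called in more of the 8 libraries, and the black line is the annotated gene, cut at 50 kb. The other 7 loci hold all 3 targets, while Hs3st2 has 1 faint H3K27ac bar.

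Most of these sites already had a called peak before 4-OHT: 17 of 28 were called in both 0 h libraries (41.2% of all sites were), 6 of 28 in neither (36.4% of all), and 11 of 28 in all 8 libraries (20.5% of all). With no group without the construct, background in the Ikaros libraries at 0 h was not tested. Of the 28, 25 overlapped a CHD4 region (77.6% of all) and 27 an H3K27ac region (95.8% of all). The CHD4 overlap rested on weak CHD4 peaks, since with peaks of −log10 q of at least 3 alone it held at 10 of 23 sites, against 27.03% of all sites.

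Before 4-OHT the strongest Ikaros signals near the genes were intragenic, in Serpinf1 and Endod1, and the fold of both fell after 4-OHT. A fold is set against the background of its own library, and the log2 changes below are relative to library medians. A change of Ikaros shared by all regions is therefore not in these log2 changes. The Serpinf1 region, chr11:75413963-75416757, lies 7.4 kb inside the gene, in an intron at an internal annotated start site. Its fold was 27.3 and 20.1 at 0 h, 7.74 and 6.37 at 30 min, 7.96 and 6.45 at 1 h, and 8.20 and 5.49 at 2 h. Both 0 h libraries stood above all 6 libraries after 4-OHT. Relative to the library medians the log2 change was −1.58 at 30 min (adjusted p = 0.00605), −1.80 at 1 h (adjusted p = 0.00136) and −1.72 ± 0.35 (SE) at 2 h (adjusted p = 0.00199), by limma with Benjamini-Hochberg adjustment over all 2305 shared Ikaros regions. The 2 h call was lost without replicate 1 at 0 h (adjusted p = 0.0700) or replicate 2 at 2 h (adjusted p = 0.108), the 30 min call without replicate 1 at 0 h (0.144) or replicate 2 at 30 min (0.0617), and the 1 h call without replicate 1 at 0 h (0.0517). The summit pileup is the height of the fragments at the summit, recovered from the lists, and its changes too are relative to the library medians. It changed by −1.78 ± 0.22 (SE) at 2 h (adjusted p = 1.3e-05) and was called with any library left out.

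The Endod1 region, chr9:14364455-14367148, lies in an intron 15.6 kb into the gene. Its fold was 16.4 and 23.7 at 0 h, 8.52 and 4.91 at 30 min, 8.95 and 8.69 at 1 h, and 7.93 and 6.57 at 2 h. Again both 0 h libraries were the highest, with no overlap with any later time. The log2 change was −1.45 at 30 min (adjusted p = 0.00849), −1.25 at 1 h (0.0238) and −1.36 ± 0.35 (SE) at 2 h (0.0143). In fragments, not adjusted for depth, the summit held 94 and 125 at 0 h and 47 and 38 at 2 h. The mean coverage was 3.59 and 3.13 fragments per base at 0 h and 2.85 and 2.125 at 2 h. The pileup change at 2 h, relative to the library medians, was −0.99 ± 0.22 (SE, adjusted p = 0.00259). The 2 h fold call was lost without replicate 2 at 0 h (adjusted p = 0.138) or replicate 2 at 2 h (0.194), the 30 min call without either 0 h library or replicate 2 at 30 min (0.0504 to 0.169), and the 1 h call without either 0 h or either 1 h library (0.0620 to 0.183), and the 2 h pileup call was lost without replicate 2 at 2 h (0.0503).

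These were 2 of the 11 Ikaros regions near the genes that could be fitted (called in all 8 libraries), against 4.69% lower and 1.21% higher of all such regions at 2 h. The same 2 were called lower at 30 min (2.82% of all) and at 1 h (4.86% of all). By pileup 3 of the 11 fell at 2 h (12.7% of all) and 1 rose (9.89% of all), which became 1 and 0 without replicate 2 at 2 h. Relative to the library medians, 5 of the 11 had both 2 h libraries below both 0 h libraries (25.8% of all) and 2 had them above (24.4% of all). No Ikaros region near the genes was called higher by fold. The median log2 change at 2 h was −0.42 over the 11 and −0.0035 over all 2305, while among the 10% of Ikaros regions with the highest signal, where 3 of the 11 belong, it was −0.26 with 11.3% called lower. Both calls were lost under quantile normalization (adjusted p = 0.0989 at Serpinf1 and 0.185 at Endod1) and in a fit of regions called in at least 4 libraries (0.168 at both). In that second fit a library without a peak at a region took the lowest fold of its list, which moves the library medians.

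The strongest site near Gfra2, chr14:70847414-70851048, lies 39.8 kb upstream in intergenic sequence. Its fold was 10.6 and 9.0 at 0 h, 13.0 and 4.53 at 30 min, 19.5 and 23.5 at 1 h, and 7.27 and 4.48 at 2 h. Both 1 h libraries were above all others and both 2 h libraries were below both 0 h libraries. The log2 change was 1.04 at 1 h (adjusted p = 0.0866) and −0.69 at 2 h (0.305). With each library left out in turn, the 2 h change ran from −1.14 to −0.24. By pileup it rose at 1 h (0.63, adjusted p = 0.0412, where 11.2% of all regions rose) and fell at 2 h (−0.62, adjusted p = 0.0454), but each of these calls was kept with only 2 of the 8 libraries left out in turn. They were lost without either 0 h library or either 2 h library, and without either 1 h library (adjusted p = 0.0532 to 0.222 for 1 h and 0.0586 to 0.233 for 2 h).

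At Bcl11a all 3 sites sat within the promoter region, and the strongest had higher values at 2 h than at 0 h. This one, chr11:24080723-24082337, lies in an intron 3.9 kb past the gene 5′ end near an internal start site, with folds of 3.88 and 4.93 at 0 h, 6.43 and 4.92 at 30 min, 6.25 and 5.24 at 1 h, and 6.23 and 8.00 at 2 h. Both 2 h libraries were above both 0 h libraries. The log2 change of 0.77 ± 0.34 (SE) did not pass by fold (adjusted p = 0.189), and the pileup change of 0.70 did (adjusted p = 0.0228), a call lost without either 0 h or either 2 h library (0.0641 to 0.133). The site next to it, which covers the 5′ end with its summit 1.6 kb past it, had 4.56 and 6.29 at 0 h and 4.05 and 7.23 at 2 h, which overlap. The other, 0.50 kb upstream, was called in 7 libraries and had 4.31 and 3.28 at 0 h and 3.72 and 3.46 at 2 h, which overlap too.

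The strongest sites of the other 3 genes did not pass at 2 h. At the Hs3st3b1 promoter, chr11:63922021-63925533, the fold was 4.31 and 6.57 at 0 h, 5.46 and 5.03 at 30 min, 5.46 and 8.81 at 1 h, and 6.75 and 8.00 at 2 h (log2 change 0.55, adjusted p = 0.384). At Ramp1, in an intron 37.0 kb into the gene, it was 8.40 and 14.9 at 0 h, 4.82 and 7.57 at 30 min, 11.5 and 7.33 at 1 h, and 10.1 and 6.16 at 2 h (−0.42, adjusted p = 0.563). The 2 h values at Hs3st3b1 were above both at 0 h, while those at Ramp1 overlapped with 0 h. At Plekho2, 38.2 kb downstream of the 5′ end and beyond the gene, it was 12.1 and 11.9 at 0 h, 5.72 and 6.19 at 30 min, 8.98 and 5.26 at 1 h, and 7.97 and 8.00 at 2 h (−0.50, adjusted p = 0.434). Here both 0 h libraries were above all 6 later ones, although the change did not pass. A further Plekho2 region called in every library, 27.8 kb downstream of the 5′ end and named after its values were seen, stayed between 5.32 and 7.73.

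**Figure D2:**
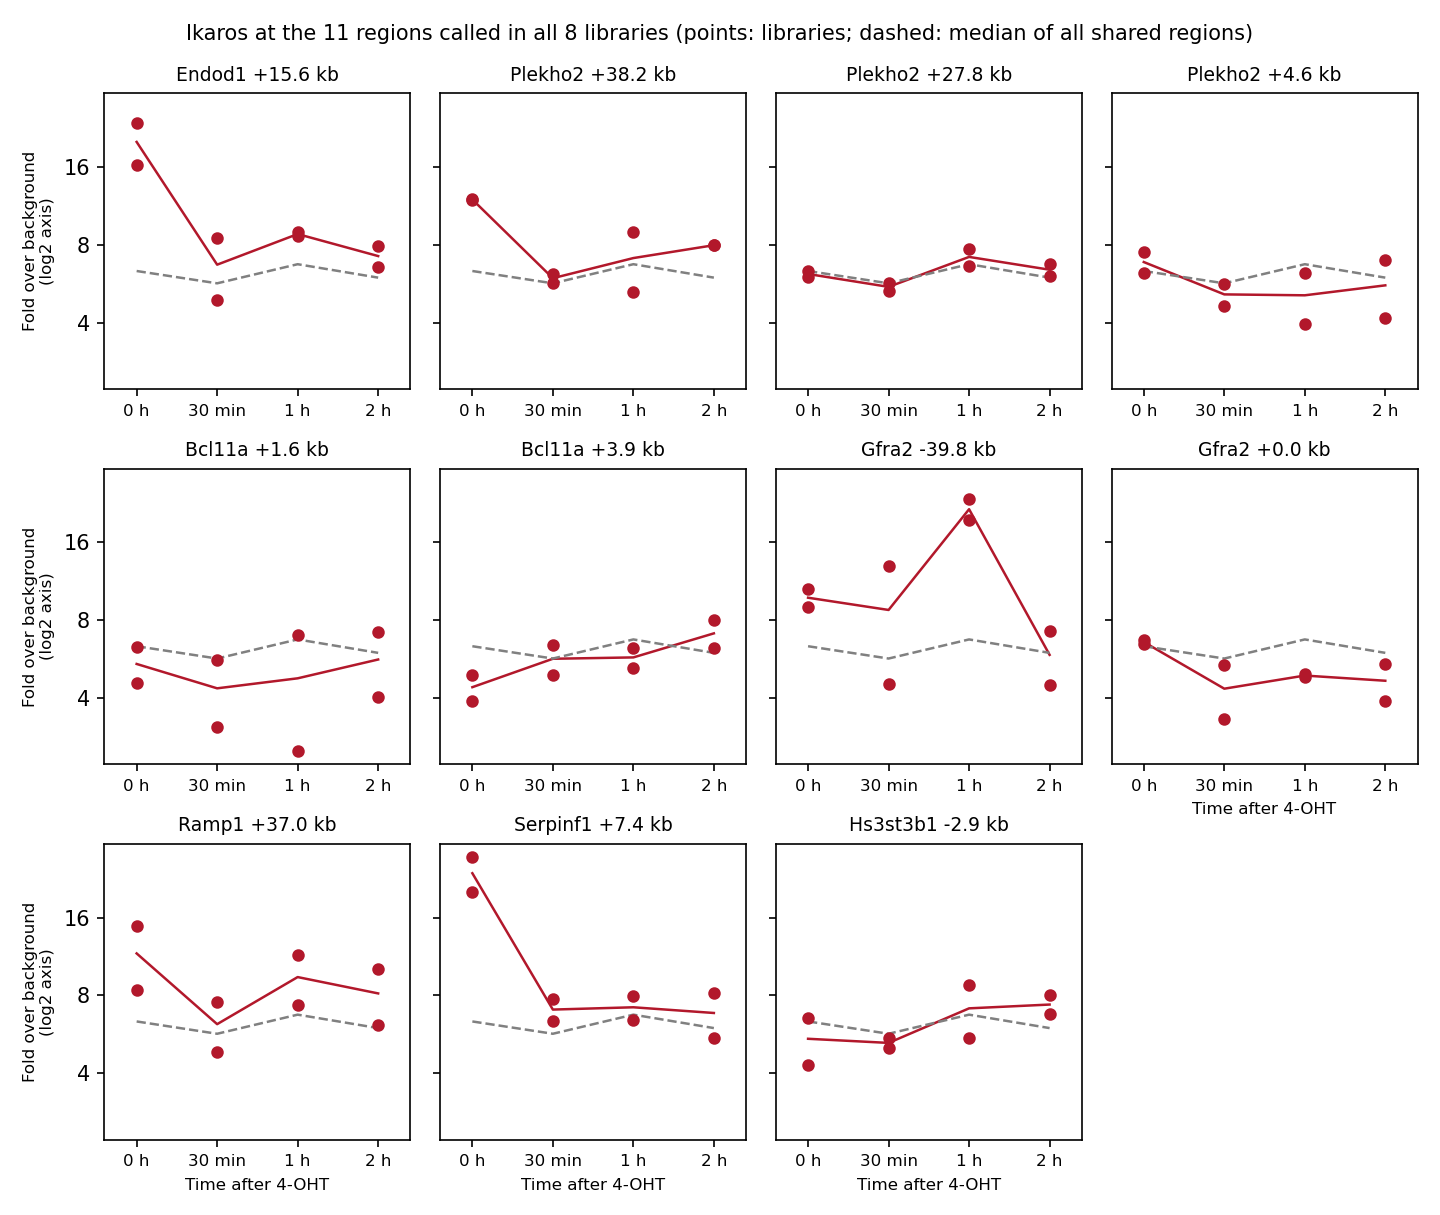
Ikaros fold (log2 axis) at the 11 regions near the genes called in all 8 libraries, by time after 4-OHT, with 1 point per library, a line through the means of the 2 replicates and a dashed line at the median of all 2305 shared regions; panel titles give the distance from the gene 5′ end. Serpinf1 and Endod1 drop from above 16 at 0 h to below 9 at every later time, and Gfra2 peaks at 1 h with 19.5 and 23.5.

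Ikaros was also called at other promoter regions of the genes, those within 1 kb of an annotated start. At the Gfra2 promoter the Ikaros fold was 6.47 and 6.72 at 0 h, 5.37 and 3.33 at 30 min, 4.83 and 4.95 at 1 h, and 3.90 and 5.44 at 2 h (log2 change −0.43, adjusted p = 0.492). At an internal start site of Plekho2, 4.6 kb into the gene, it was 6.25 and 7.50 at 0 h and 7.01 and 4.16 at 2 h, which overlap. The region at the 5′ end of Endod1 was called in 7 of 8 libraries, missing replicate 2 at 30 min, with folds of 3.43 to 7.04. A Plekho2 region 0.88 kb into the gene was called in 5 libraries (4.14 to 5.40), and a Serpinf1 region 5.4 kb into the gene in both 1 h libraries (3.69 and 4.81) and replicate 2 at 2 h (5.17). Ramp1 had a promoter peak in 1 library alone, replicate 1 at 30 min (3.22). The Serpinf1 5′ end had no peak, the nearest Ikaros region being 5.29 kb away, and the Plekho2 5′ end itself was covered in 2 libraries, replicate 2 at 1 h (5.68) and replicate 1 at 2 h (6.63).

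New Ikaros regions after 4-OHT were found at 5 places near the genes, and 1 was lost; a gained region was called in both 2 h libraries and neither 0 h library, which held for 12.0% of all Ikaros regions, and a lost one the reverse (3.59%). The gained ones near Plekho2 were 44.3 kb downstream (3.52 and 6.08 at 2 h) and 18.9 kb upstream (4.37 and 3.75). Near Hs3st3b1 a gained region lay in an intron 13.5 kb into the gene (4.68 and 5.12). The other 2 lay in the Serpinf1 window at the promoters of neighbours, Wdr81 (3.84 and 4.16) and Tlcd2 with Mir22hg (3.54 and 6.40). The lost one lay 9.9 kb upstream of Gfra2, with 3.64 and 5.11 at 0 h. All 6 were weak, and 5 gained of 49 regions is a share near that background. The 2 h lists were longer (14225 and 14179 Ikaros peaks, against 7822 and 9527 at 0 h), and with lists of equal size 1 region was gained and 1 lost. With 1 replicate number left out 12 to 13 were gained and 1 to 6 lost.

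CHD4 was present at the strongest Ikaros site of each of the 7 bound genes, and none of the 7 CHD4 regions near the genes that were called in all 8 libraries passed the test. Their folds, which for broad peaks are averages over the region, lay between 2.86 and 4.73 in all libraries. The highest value was in Endod1, whose region 15.9 kb into the gene had 4.73 and 3.83 at 0 h, 3.23 and 2.97 at 30 min, 4.26 and 3.94 at 1 h, and 3.07 and 3.46 at 2 h. In Serpinf1 the fold was 4.05 and 4.04 at 0 h, 3.39 and 3.79 at 30 min, 3.54 and 3.5 at 1 h, and 3.02 and 3.07 at 2 h. In both genes the 2 h libraries were below both 0 h libraries, and so were those of Ramp1 (4.18 and 4.06 at 0 h, 3.42 and 3.08 at 2 h). The log2 changes were −0.28 at Endod1 (adjusted p = 0.630), −0.30 at Serpinf1 (0.479) and −0.24 at Ramp1 (0.708). Near Plekho2 and Gfra2 the 4 shared regions had changes of 0.11 to 0.21. In the fit of regions called in at least 4 libraries, the Plekho2 and Gfra2 regions at the strongest Ikaros sites were at −0.61 and −0.66, and those of Endod1, Serpinf1 and Ramp1 were at −1.06, −1.09 and −1.02, with none passing (adjusted p = 0.632 to 0.635). These regions had a peak in every library, so their own folds were the same in both fits. Only the library medians used for centring differed, as missing peaks of other regions took the lowest fold of their list.

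By limma 0 of the 7 CHD4 regions passed at 2 h and 2 had an unadjusted p under 0.05, against 0.138% lower and 0.415% higher of all 723 shared regions and 53 with an unadjusted p under 0.05. Of the 7, 3 had both 2 h libraries below both 0 h libraries relative to the library medians (17.7% of all), and 3 had them above (20.2% of all).

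At the genes' own promoters other than the internal start of Serpinf1, CHD4 was called in 7 libraries or fewer. The Endod1 5′ end had a CHD4 region in both 1 h and both 2 h libraries and 1 at 30 min, with folds of 3.01 to 3.89, and in neither 0 h library. At Bcl11a a broad region over the 5′ end was called in 7 libraries (3.08 to 3.63), and a second, 4.1 kb past the 5′ end, in the 2 h libraries alone (3.35 and 2.88). These were the 2 gained CHD4 regions near the genes, with 0 lost, against 5.31% gained and 1.45% lost of all CHD4 regions. The balance turned with lists of equal size (0 gained and 2 lost) and with −log10 q of at least 3 (1 gained and 2 lost), the 2 h lists holding 5523 and 9593 CHD4 peaks against 2488 and 6000 at 0 h. With 1 replicate number left out 7 to 9 were gained and 2 to 3 lost. The Hs3st3b1 promoter had CHD4 in 7 libraries (3.09 to 3.94), the Gfra2 promoter in 2 (3.06 and 3.14, at 0 h and 30 min), and the Ramp1 and Serpinf1 5′ ends in 0. At the Plekho2 internal start 4.6 kb into the gene it was called in both 0 h libraries (3.5 and 3.47) and replicate 2 at 2 h (3.25). Single libraries gave a region 1.1 kb into Plekho2, another 1.1 kb upstream of it and 1 in Endod1 1.5 kb into the gene (3.25 to 3.52). The number of CHD4 peaks near the genes was 11 and 22 at 0 h, 14 and 15 at 30 min, 18 and 16 at 1 h, and 15 and 29 at 2 h, and the 0 h and 2 h numbers overlapped.

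By the mean of the 2 replicates, H3K27ac was highest before 4-OHT at all 8 promoter regions called in every library and lowest at 1 h or 2 h, an order that 34.0% of all 14715 shared regions also had. The folds fell in general, by a median of 0.46 on the log2 scale from 0 h to 2 h over all shared regions, and the log2 changes given here are relative to that shift. The largest change at 2 h, and the 1 that passed by fold, was at Gfra2, the co-receptor gene. Its promoter region, chr14:70886922-70895111, is 8.19 kb wide and reaches from upstream of the start into the first part of the gene. The fold there was 32.4 and 27.5 at 0 h, 19.7 and 15.3 at 30 min, 9.52 and 6.88 at 1 h, and 6.92 and 7.29 at 2 h. The libraries of each time stood below both libraries of the time before, up to 1 h. The log2 change was −0.81 at 30 min (adjusted p = 0.300), −1.59 at 1 h (0.0324) and −1.61 ± 0.25 (SE) at 2 h (0.0193).

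The Gfra2 promoter was the 1 region called lower at 2 h among the 21 shared H3K27ac regions near the genes, and 0 were called higher, against 0.224% lower and 0.183% higher of all 14715, and it was the 1 called lower at 1 h, against 0.19% of all. Its call at 2 h was lost without replicate 1 or 2 at 0 h (adjusted p = 0.0867 and 0.167) or replicate 1 or 2 at 2 h (0.112 and 0.117), and its call at 1 h was lost whichever of the 8 libraries was left out (0.0655 to 0.276). The log2 change itself stayed between −1.67 and −1.55 at 2 h. In fragments, the summit held 178 and 156 at 0 h, 96 and 78 at 30 min, 53 and 34 at 1 h, and 34 and 38 at 2 h. By pileup the change at 2 h was −1.63 ± 0.16 (SE, adjusted p = 4.4e-09), called with any library left out.

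Serpinf1 and Hs3st3b1, both on chromosome 11, had the next largest changes at 2 h by pileup. By fold Endod1 stood between them, but its place relative to Hs3st3b1 turned with 1 library left out (Endod1 as far as −0.50, Hs3st3b1 from −0.94 to −0.71). The Serpinf1 region, chr11:75408751-75418731, covers the internal start site and the Ikaros site printed above, while the 5′ end of the gene lay 3.97 kb outside any H3K27ac region. Its fold was 38.2 and 23.9 at 0 h, 16.3 and 16.1 at 30 min, 12.7 and 5.13 at 1 h, and 8.96 and 9.39 at 2 h. The Hs3st3b1 promoter region, chr11:63915242-63925614, had 26.4 and 18.8 at 0 h, 18.7 and 7.01 at 30 min, 11.3 and 11.3 at 1 h, and 8.89 and 9.39 at 2 h. In both genes each later library was below both 0 h libraries. The log2 changes at 2 h, −1.26 ± 0.31 (SE) at Serpinf1 and −0.83 ± 0.32 at Hs3st3b1, did not pass by fold (adjusted p = 0.0793 and 0.225), nor did those at 30 min and 1 h, with the Serpinf1 change at 1 h at −1.61 (0.0513). By pileup both fell, with changes of −1.39 (adjusted p = 1.4e-08) and −1.01 (6.54e-06), and both were called with any library left out. The Serpinf1 change also passed by fold without centring of the libraries (−1.72, adjusted p = 0.0123) and in the fit of regions called in at least 4 libraries (0.0472).

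The Endod1 promoter region, chr9:14372431-14383859, had a fold of 29.1 and 25.5 at 0 h, 29.5 and 17.1 at 30 min, 15.3 and 13.2 at 1 h, and 7.72 and 13.8 at 2 h. The 1 h and 2 h libraries were below both 0 h libraries, and 1 of the 30 min libraries was level with 0 h. The Bcl11a promoter region, chr11:24074811-24084875, had 29.5 and 26.9 at 0 h, 26.5 and 13.4 at 30 min, 18.3 and 13.0 at 1 h, and 13.0 and 14.2 at 2 h, with no overlap between 0 h and any later time. The log2 changes at 2 h were −0.94 ± 0.30 (SE, adjusted p = 0.148) at Endod1 and −0.59 ± 0.26 (0.288) at Bcl11a. With each library left out in turn, the Endod1 change ran from −1.38 to −0.50. By pileup they fell by 0.82 (adjusted p = 2.8e-05) and by 0.60 (0.00131), called with any library left out.

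The promoters of Ramp1 and Plekho2 passed by neither measure at 2 h, while by pileup both had passed at 1 h. The Ramp1 promoter had the lowest level, with folds of 8.59 and 8.40 at 0 h, 7.58 and 3.69 at 30 min, 4.09 and 3.58 at 1 h, and 4.75 and 3.63 at 2 h. All later libraries were below both at 0 h, but the change at 2 h passed neither by fold (−0.57, adjusted p = 0.377) nor by pileup (−0.42, 0.163). At 1 h its pileup fell by 0.78 (adjusted p = 0.0104), a call lost without replicate 2 at 0 h (0.115) or replicate 1 at 1 h (0.0630). Plekho2 had a region from its 5′ end to its internal start site with 18.6 and 22.1 at 0 h, 22.4 and 10.6 at 30 min, 14.1 and 9.14 at 1 h, and 12.8 and 13.6 at 2 h (−0.16, adjusted p = 0.836). Its pileup fell by 0.73 at 1 h (adjusted p = 0.00071), called with any library left out, and was at −0.37 at 2 h (0.0680). A second region, 0.72 kb upstream of the Plekho2 5′ end, had 11.1 and 9.60 at 0 h, 9.89 and 6.80 at 30 min, 6.61 and 5.15 at 1 h, and 7.07 and 4.38 at 2 h (−0.43, 0.486). Both were below 0 h in both 2 h libraries as deposited. A weak one, at an internal start 18.7 kb into Plekho2, was called in 3 libraries (3.16 to 3.52).

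**Figure D3:**
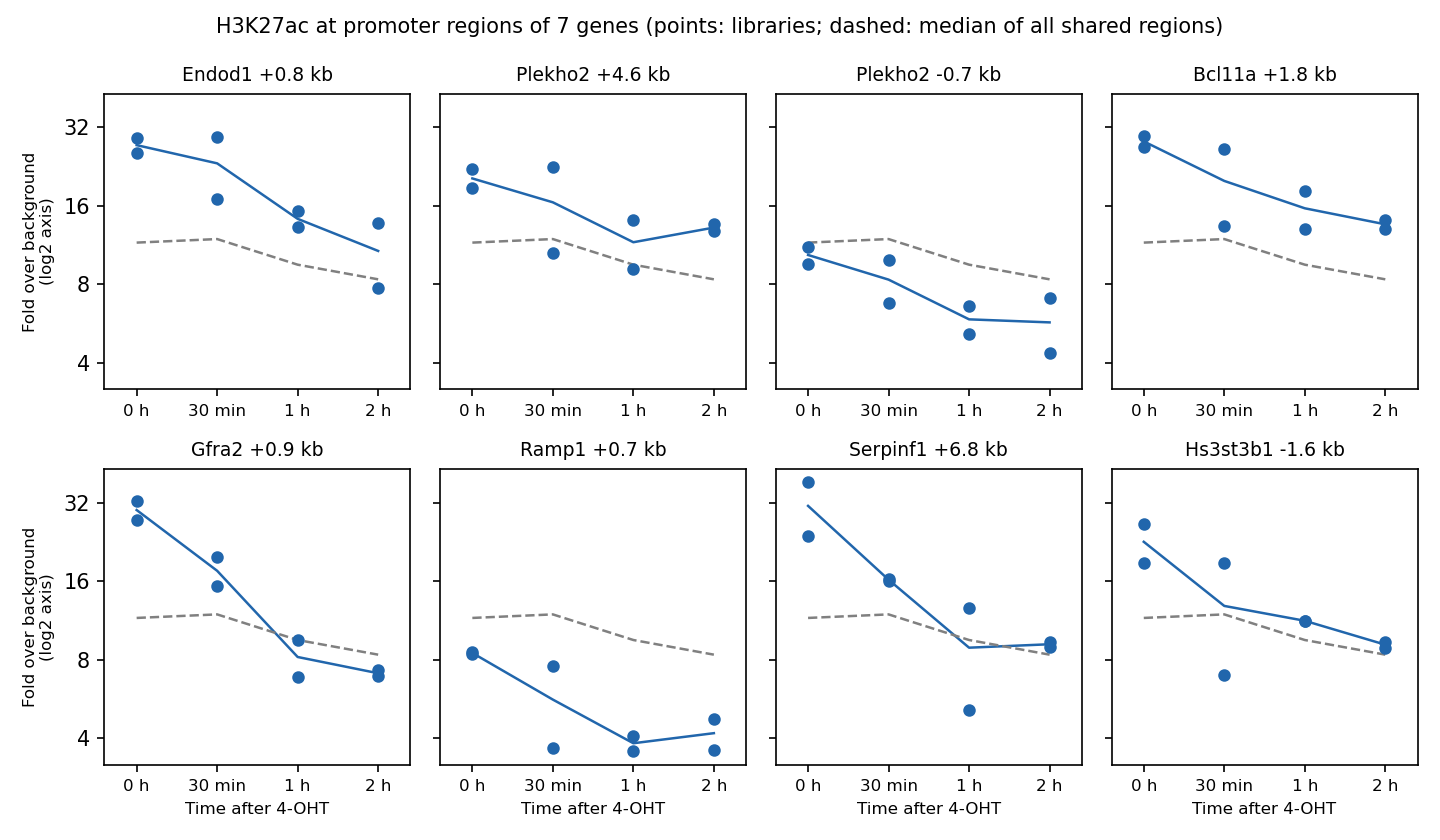
H3K27ac fold (log2 axis) at the 8 promoter regions called in all 8 libraries, by time after 4-OHT, with 1 point per library, a line through the means of the 2 replicates and a dashed line at the median of all 14715 shared regions. Gfra2 goes from 32.4 and 27.5 at 0 h to 6.92 and 7.29 at 2 h, and Ramp1 and the upstream Plekho2 region are low throughout.

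As deposited, 8 of 8 own promoter regions had both 2 h libraries below both 0 h libraries, and 54.3% of all 14715 regions did. Relative to the library medians it was 7 of 8 own promoter regions and 15 of all 21, against 20.6% of all regions, and 2 of 21 were above, against 27.3%. The same order was present at 30 min for 7 of 8 own promoters (20.2% of all regions). The median log2 change at 2 h was −0.71 over the 8 own promoters, −0.28 over 10 distal regions and −0.26 over 3 promoters of neighbours, beside 0.05 over all regions. Width differed too: 11 of the 21 were among the widest 10% of all shared regions, whose median change was −0.01.

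Measured by pileup, 6 of the 21 regions fell at 30 min, against 4.57% of all regions, and 4 of the 6 were own promoters, those of Gfra2, Serpinf1, Hs3st3b1 and Endod1. At 1 h 11 fell and 1 rose, against 8.06% and 10.8% of all regions, and the 11 included 7 of 8 own promoters, all but the upstream one of Plekho2. At 2 h 9 fell and 2 rose, against 8.08% and 15.9% of all regions. The 6 became 2 or 3 without replicate 1 or 2 at 0 h and 3 without replicate 2 at 30 min, and without replicate 2 at 0 h the 11 became 7 and the 9 became 5. The 9 were the promoters of Gfra2, Serpinf1, Hs3st3b1, Endod1 and Bcl11a, described above, and 4 regions away from the genes' own promoters. The 1 upstream of Gfra2 by 39.5 kb, which holds its strongest Ikaros site, had folds of 47.0 and 30.8 at 0 h, 35.1 and 17.9 at 30 min, 36.3 and 21.1 at 1 h, and 23.9 and 22.1 at 2 h (pileup −0.48, adjusted p = 0.00642, and 0.0789 without replicate 2 at 0 h). Another, 5.2 kb upstream of Gfra2, had 21.1 and 20.7 at 0 h, 18.7 and 14.5 at 30 min, 10.0 and 4.44 at 1 h, and 8.47 and 10.3 at 2 h (−0.56, adjusted p = 0.00804, lost without either 0 h library or replicate 1 at 2 h, 0.0641 to 0.116). At 1 h the pileup of this second region had fallen by 1.00 (adjusted p = 2.1e-05), called with any library left out, while its fold change of −1.35 did not pass (0.0759). At both of these Gfra2 regions the 2 h libraries were below both 0 h libraries. Gfra2 was thus the gene with the most regions that fell by pileup at 2 h, 3 of its 4 shared ones, the 1 at 15.7 kb upstream having 7.50 and 6.43 at 0 h and 4.36 and 3.95 at 2 h (−0.27, adjusted p = 0.441).

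The intronic domain of Endod1 that holds its Ikaros site, 10.2 kb wide, had folds of 35.0 and 42.2 at 0 h, 34.0 and 14.6 at 30 min, 35.3 and 16.9 at 1 h, and 18.3 and 15.4 at 2 h. By fold both 2 h libraries were below both 0 h libraries, and at 30 min and 1 h replicate 1 was level with 0 h while replicate 2 was lower. In fragments at the summit all 6 later libraries were lower, with 347 and 283 at 0 h, 196 and 160 at 30 min, 237 and 145 at 1 h, and 161 and 168 at 2 h. The pileup change was −0.70 at 30 min (adjusted p = 0.000171), called with any library left out, and −0.42 at 1 h (0.00948), lost without replicate 1 at 0 h (0.151) or replicate 2 at 1 h (0.144). The pileup change at 2 h was −0.34 (adjusted p = 0.0285), lost without either 0 h or either 2 h library (0.0578 to 0.261), and the fold change was −0.73 (0.274). The Ramp1 region 37.6 kb into the gene, again over its Ikaros site, had 17.3 and 13.9 at 0 h, 13.6 and 13.6 at 30 min, 11.1 and 7.77 at 1 h, and 6.72 and 8.42 at 2 h. All libraries after 4-OHT were below both at 0 h, and the pileup fell by 0.50 (adjusted p = 0.0229), a call lost without replicate 2 at 0 h (0.238) or replicate 1 at 2 h (0.109).

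The widest H3K27ac domain near any of the genes, 21.2 kb, reached from the 3′ end of Plekho2 to beyond it and holds 6 of its regions bound by Ikaros. Its fold was 59.3 and 49.3 at 0 h, 47.9 and 35.6 at 30 min, 45.9 and 20.7 at 1 h, and 30.0 and 32.9 at 2 h. All later libraries were below both 0 h libraries as deposited. Relative to the library medians the change was −0.33 by fold (adjusted p = 0.587) and −0.10 by pileup (0.566), so at Plekho2 neither the domain nor the promoter passed at 2 h. At 30 min the domain fell by 0.49 by pileup (adjusted p = 0.00511), a call lost without either 0 h library or replicate 2 at 30 min (0.0512 to 0.0931).

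The 2 regions that rose by pileup were next to genes whose promoters fell. An intronic region 15.4 kb into Hs3st3b1 had folds of 22.2 and 18.8 at 0 h, 28.4 and 21.1 at 30 min, 23.7 and 16.8 at 1 h, and 22.1 and 19.9 at 2 h. It was level as deposited, where most regions were lower, and rose relative to the medians (pileup 0.48, adjusted p = 0.00672; fold 0.50, 0.330), a call lost without replicate 2 at 0 h (0.0580) or replicate 1 at 2 h (0.0678). The region over the Wdr81, Tlcd2 and Mir22hg promoters, 38.2 kb upstream of Serpinf1, had 49.9 and 38.0 at 0 h, 53.8 and 27.6 at 30 min, 60.6 and 32.5 at 1 h, and 33.6 and 42.4 at 2 h. Its 0 h and 2 h values overlapped as deposited, and its pileup rose by 0.67 relative to the medians (adjusted p = 3.64e-05; fold 0.26, 0.698), called with any library left out. The 2 gained Ikaros regions of the Serpinf1 window lie in this same domain.

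**Figure D4:**
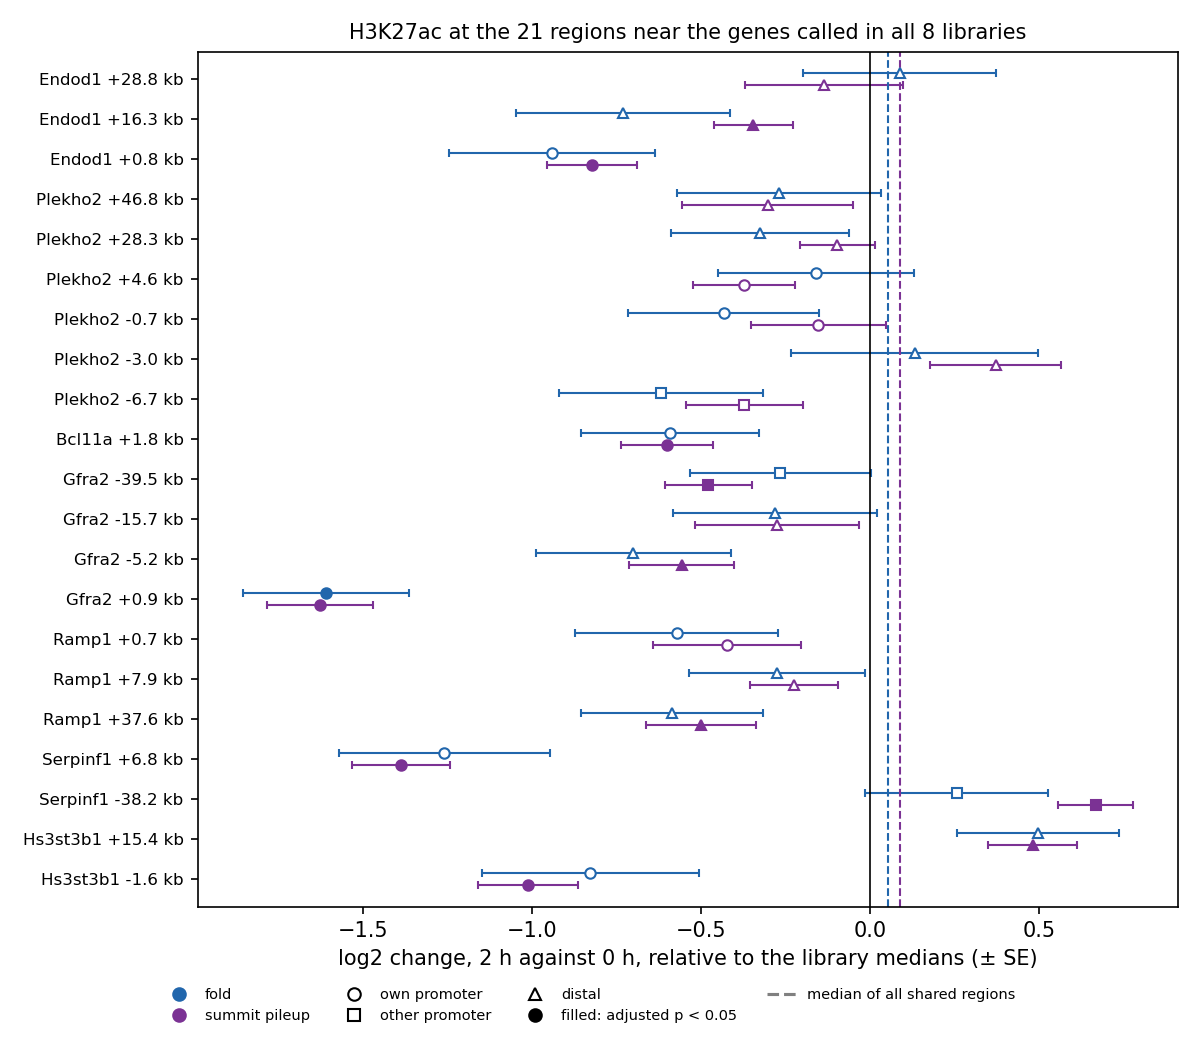
Change in H3K27ac from 0 h to 2 h (log2, relative to the library medians, ± SE) at the 21 regions near the genes called in all 8 libraries, by fold (blue) and summit pileup (purple), with filled symbols where the adjusted p is under 0.05 and dashed lines at the medians of all 14715 regions. The Gfra2 promoter is at −1.61 by fold and −1.63 by pileup, and the promoters of Serpinf1, Endod1 and Hs3st3b1 follow by fold.

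The other 6 shared H3K27ac regions, named here after their values were seen, passed by neither measure at 2 h. At the Pif1 promoter, 6.7 kb upstream of Plekho2, the fold was 17.9 and 13.6 at 0 h and 9.48 and 5.74 at 2 h (log2 change −0.62, adjusted p = 0.336). In Ramp1, 7.9 kb into the gene, it was 30.3 and 24.8 at 0 h and 14.8 and 18.4 at 2 h (−0.28, 0.656). Neither overlapped between 0 h and 2 h. The region 15.7 kb upstream of Gfra2 was given above, and those 28.8 kb into the Endod1 window and 46.8 kb and 3.0 kb from Plekho2 had folds under 10 in all libraries. The 53 H3K27ac regions called in fewer than 8 libraries had folds of 2.36 to 9.14 and widths of 226 to 1996 bp, and 25 of the 74 regions were called in 1 library (36.4% of all H3K27ac regions were). The highest and widest of the 53, also named after its values were seen, lay 43.0 kb upstream of Hs3st3b1 at the promoter of 9630013K17Rik. Its fold was 9.14 and 7.36 at 0 h, 7.88 and 4.10 at 30 min, and 6.19 and 4.94 at 1 h, and at 2 h it was called in replicate 2 alone, with 3.67. It lacked a peak in 1 library and so was not among the shared regions tested.

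Weak H3K27ac regions came and went. Near the genes 5 were gained at 2 h and 1 was lost, against 3.73% and 2.78% of all H3K27ac regions. With lists of equal size it was 2 gained and 3 lost, and with 1 replicate number left out 14 to 20 gained and 5 to 8 lost. The gained ones lay 23.0 kb into Endod1, 8.0 and 19.9 kb into Bcl11a, 10.4 kb into Hs3st3b1 and in an intron of Smyd4 in the Serpinf1 window, and the lost one was at the Rbpms2 promoter in the Plekho2 window. In length, H3K27ac around Gfra2 covered 27086 and 26538 bp at 0 h and 21080 and 20291 bp at 2 h, and around Ramp1 13733 and 12265 bp against 10151 and 9147 bp. For Gfra2 and Ramp1 both 2 h libraries were below both 0 h libraries, while around Bcl11a the covered length was higher, 9342 and 9916 bp at 0 h and 12897 and 11032 bp at 2 h. Of the 9788 protein-coding genes with promoter H3K27ac at 0 h, 16.8% had both 2 h libraries below both 0 h libraries in covered length and 39.0% had them above. Endod1, Plekho2, Serpinf1 and Hs3st3b1 overlapped between 0 h and 2 h. The median over these 9788 genes went from 5130 and 4833.5 bp to 5597 and 5076.5 bp, which was below all 7 loci here other than Hs3st2.

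Hs3st2 stood apart from the other genes. It had 0 Ikaros and 0 CHD4 regions within 50 kb, the nearest being 53.0 kb away for both, and its promoter had no H3K27ac peak in any library. Its 1 H3K27ac region, 29.6 kb away, was called in replicate 1 at 1 h (3.39) and replicate 1 at 2 h (3.18), both weak. The nearest H3K27ac region called in both replicates of a time after 4-OHT was 51.9 kb away. With no peak at any distance inside the window in replicate, no change could be measured at Hs3st2.

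Of 15 relatives of the 8 genes (Plekho1, Bcl11b, Gfra1, Gfra3, Gfra4, Ramp2, Ramp3, Serpinf2, Hs3st1, Hs3st3a1, Hs3st4, Hs3st5, Hs3st6, Endog and Endov), 5 had promoter H3K27ac in both 0 h libraries (44.6% of all protein-coding genes did) and 8 had an Ikaros site within 50 kb (50.8% of all). The sulphotransferase genes Hs3st1, Hs3st3a1, Hs3st4 and Hs3st5 had 0 Ikaros sites and 0 H3K27ac regions at 0 h, like Hs3st2, whereas Hs3st6 had 3 of each. Serpinf2 is a neighbour of Serpinf1 and shares its 5 Ikaros sites, so its count is not separate. Plekho1 had 6 Ikaros sites, the most among the 15.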

How the data were processed

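ChIP-seq peak lists for HA-Ikaros-ERt2, CHD4 and H3K27ac in B3 cells were used, with 8 lists per target and 24 in total. The 8 inputs have no list and were not used here. Per the study's methods and the submitters' processing notes, the authors mapped read pairs to mm10 (Bowtie2 2.4.2), handled duplicates with Picard 2.23.7, and called peaks with MACS2 2.2.7.1, narrow for Ikaros and H3K27ac and broad for CHD4; deepTools 3.5.0 served for tracks. These steps are stated for 0, 1 and 2 h, and the settings for 30 min and the input paired with each library are not given in the sources used here. The deposited lists carry the authors' display score (unused), their fold enrichment over local background, a ratio, and −log10 values for p and q. A fold rests on a pileup and a background with a pseudocount, so it understates high ratios and moves with the input as well as with the mark. Broad CHD4 folds are region averages.

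Peaks of a target were merged over its lists where they overlapped by 1 bp, and a region took its highest fold. Genes and start sites came from GENCODE M21, on the build of the lists (GRCm38). An own promoter region lay within 1 kb of any annotated start of the gene, another promoter region within 1 kb of another gene's start, and all others were distal. Distances run from the gene 5′ end to the summit, or for CHD4 to the centre of the region. Regions called in all 8 libraries were fitted with limma 3.58.1 (R 4.3.3; lmFit and eBayes with trend) on log2 fold, each library centred on its median, all 4 times in 1 fit, against 0 h, with Benjamini-Hochberg adjustment over all regions of the target and a threshold of 0.05. A member region is fitted only if called in all 8 libraries, so regions lost to calling are not in those counts. Summit pileup and mean coverage were recovered from the fold and p of narrow peaks (Python 3.11.15, numpy 2.4.6, pandas 2.3.3, scipy 1.17.1). The coverage of a library came from 1042 to 2028 weak peaks, with a scale chosen to make their pileups whole, and 99.9% to 100% of these were whole within 0.1 fragments. Strong peaks did not enter that share. The fit and the recovery were tested on simulated data. With 2 replicates that the labels do not describe as separate cultures, p-values measure the spread between these libraries, which may be technical.

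The text names all own promoter regions, the strongest Ikaros site of each gene with the CHD4 and H3K27ac regions over it, the regions past the threshold, and gained or lost regions; others are said to be named after their values were seen, or passed by summit pileup, an alternative measure. The genes, lists and rules were chosen with earlier results of these data known. Samples were grouped by their titles. Alternatives were a replicate block, no centring, quantile normalization, a lower and a stricter region filter, equal list sizes, left-out libraries, summit pileup, a 20 kb window, a 3 kb promoter and a 50% overlap. In the lower filter, of at least 4 libraries, a library without a peak at a region took the lowest fold of its list.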

Additional observations from a re-analysis of the deposited data

How the results depend on the processing

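Regions called lower and higher by fold at 2 h were 108 and 28 for Ikaros, 1 and 3 for CHD4, and 33 and 27 for H3K27ac, of which 2, 0 and 1 lower and 0 higher lay near the 8 genes. Without centring they were 12 higher for Ikaros, 2 lower and 1 higher for CHD4, and 421 lower (3 near the genes) and 5 higher for H3K27ac. With quantile normalization they were 16 lower (0 near the genes) and 4 higher for Ikaros, 0 and 0 for CHD4, and 64 lower for H3K27ac. Over regions called in at least 4 libraries they were 0 and 0 for Ikaros (0 near the genes) and for CHD4, and 160 lower (2 near the genes) and 300 higher (1 near the genes) for H3K27ac. With lists of equal size they were 46 lower and 8 higher for Ikaros. By summit pileup they were 292 lower and 228 higher for Ikaros (1 near the genes higher), and 1189 lower (9 near the genes) and 2339 higher (2 near the genes) for H3K27ac. Leaving out each library in turn gave 29 to 110 lower (0 to 2 near the genes) and 4 to 26 higher for Ikaros, 0 to 2 lower and 1 to 6 higher for CHD4, and 0 to 21 lower (0 to 1 near the genes) and 0 to 11 higher for H3K27ac. The labels number replicates, and region by region same-numbered libraries deviated together little. The correlations over 6 pairs of times were −0.01 to 0.06 for Ikaros, −0.05 to 0.18 for CHD4 and −0.01 to 0.06 for H3K27ac. Such a correlation does not see a shift shared by all regions of a library. For H3K27ac, replicate 1 had the higher median fold over the shared regions and the longer peak list at every time. Ikaros and CHD4 had no such order. Whether same-numbered libraries share more than a number was not tested further. The replicate block gave 126 lower and 42 higher regions for Ikaros, 2 and 3 for CHD4, and 29 and 19 for H3K27ac. Of the lower ones, 2, 0 and 1 lay near the genes.

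The sign turned over at regions that had not passed. With each library left out in turn, the change at 2 h ran from −0.74 to 0.22 at the Plekho2 Ikaros region 4.6 kb into the gene, from −0.88 to 0.043 at the Ramp1 Ikaros site, from −0.22 to 0.42 at the Bcl11a Ikaros region 1.6 kb into the gene (−0.01 without replicate 1 at 0 h, and −0.19 in the fit of at least 4 libraries) and from −0.41 to 0.092 at the Plekho2 H3K27ac promoter region 4.6 kb into the gene. In the fit of at least 4 libraries the CHD4 regions at the strongest Plekho2 and Gfra2 sites were at −0.61 and −0.66, with the same folds and other library medians.

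Gained and lost regions near the genes were 5 and 1 for Ikaros, 2 and 0 for CHD4, and 5 and 1 for H3K27ac. With −log10 q of at least 3 there were 2 Ikaros regions lost, 1 CHD4 gained and 2 lost, and 2 H3K27ac gained. With lists of equal size there were 1 Ikaros gained, 0 CHD4 gained and 2 lost, and 2 H3K27ac gained and 3 lost. In a 20 kb window there were 2 Ikaros gained, 3 H3K27ac gained and 0 lost. With 1 replicate number left out there were 12 to 13 Ikaros gained and 1 to 6 lost, 7 to 9 CHD4 gained and 2 to 3 lost, and 14 to 20 H3K27ac gained and 5 to 8 lost. The 20 kb window held 2 other promoter and 19 distal Ikaros regions, 2 and 9 for CHD4, and 1 and 31 for H3K27ac, and 17 Ikaros sites, 15 with CHD4 and 16 with H3K27ac. With −log10 q of at least 3 there were 2 own promoter, 1 other promoter and 6 distal CHD4 regions, and 10 Ikaros sites with CHD4. A 3 kb promoter distance gave 11 other promoter H3K27ac regions. The cause of these differences was not tested, beyond that fewer peaks, samples or bases enter some of them. Coverage of a few fragments per base limits weak Ikaros peaks, which a list can miss by few fragments.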
